A study of Mus musculus with 10 samples.

Results

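Whole thymus of mice that had lost 1 allele of Usp7 in the hematopoietic system (heterozygous KO, n = 3 animals) was compared with whole thymus of wild-type mice (n = 4 animals). The comparison used these 7 of the 10 libraries of the series, and its members were the 19511 genes of 35375 counted features that passed a filter on low counts. All animals had a C57BL/6J background and were taken 3 days after birth. The other 3 libraries came from mice with both alleles knocked out (homozygous KO), and they entered the same fit and are given beside some results for reference. The deletion was directed at the hematopoietic system, so the epithelial and stromal cells of the thymus are not described as deleted. Of the 4 wild types, 2 had cre induced and 2 did not, and the series does not state which libraries these are. The driver of the cre and the exons removed are not given in the sources used here.

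USP7 is a deubiquitinating enzyme, a protease that takes ubiquitin off other proteins and so can spare them from degradation. Its best known partners are the ubiquitin ligase MDM2 and the tumour suppressor p53, which MDM2 marks for degradation. In T-lineage acute lymphoblastic leukaemia USP7 mutations hit a single allele, and the study asked whether that loss lowers the activity of the E proteins E2A (Tcf3) and HEB (Tcf12). E proteins are basic helix-loop-helix factors that drive the early steps of T-cell development, among them the genes for antigen receptor rearrangement. The thymus of a newborn mouse consists mostly of CD4 and CD8 double-positive thymocytes that divide and rearrange their receptor genes.

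The libraries of heterozygous KO held 90479962 to 97407789 counts and those of wild type 39833850 to 86366734, so that the shallowest wild-type library resolved low expression least. A floor of 3 counts was 0.0737 CPM (the count per 1e6 counts of the library, scaled by trimmed mean of M values) in that library and 0.03 CPM in the deepest heterozygous KO library, which covers counting error only. Each library differed from the others of its group by more than sampling noise. The labels give no sex. Xist, transcribed from the inactive X chromosome, was above 100 CPM in wild types 2, 3 and 4 and at or below 1.03 CPM in wild type 1 and in all 3 heterozygous KO libraries, so that the heterozygous KO group held no library with female expression. Animals numbered 44 to 51 in the titles comprised wild types 1 to 3 and heterozygous KO 1, and animals numbered 56 to 63 comprised wild type 4 and heterozygous KO 2 and 3. The libraries of the higher numbers stood apart on the first principal component of the 7 libraries, with 32.0% of the variance. Values within sexes and within blocks of animal numbers are given where they touch a result. The tissue label held against its markers: Cd8a lay between 1135 and 1376 CPM and Rag1 between 5564 and 6622 CPM in the 7 libraries.

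The knocked-out gene was read before all others, as a test of the group labels. Usp7 (ENSMUSG00000022710, chromosome 16, 8689595 to 8792308, minus strand, GRCm38) had 472, 516 and 516 CPM in heterozygous KO and 676, 670, 594 and 589 CPM in wild type. Every heterozygous KO library lay below every wild-type library. Heterozygous KO had a mean of 501 ± 25.4 CPM (SD, n = 3), or 79.2% of the wild-type mean of 633 ± 47.2 CPM (SD, n = 4). The log2 fold change was -0.34 (SE 0.11), with a 95% interval of -0.57 to -0.10. This corresponds to 0.674 to 0.931 of the wild-type level and does not include a ratio of 0.5. Homozygous KO still had a mean of 377 ± 65.1 CPM (SD), with a log2 fold change of -0.74 against wild type (edgeR adjusted p 5.2e-04). Reads of Usp7 were thus counted even with both alleles knocked out, so a ratio of 0.5 is no measure of the loss of 1 allele here. For heterozygous KO against wild type the test across genes is given next. In that comparison the edgeR adjusted p of Usp7 was 0.608, so it did not pass. An exact two-sided permutation test of Usp7 alone gave p = 0.0286, the smallest it allows with these group sizes. The difference on the log2 scale was -0.45 within animals 44 to 51, -0.19 within animals 56 to 63 and -0.43 against the single wild type with male expression, and each of these has an arm of 1 library. Wild types 3 and 4, the pair with the lower Usp7 level, are also those whose column names in the count table carry the word het. What that word refers to is not stated. The cre split the wild types into groups of the same sizes, and whether the word follows the cre or Usp7 cannot be told from the names. Counts were made over the whole gene, so transcripts that lack only the deleted exons are still counted, and in these bulk samples fewer cells of a type and less RNA per cell cannot be told apart.

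**Figure D1:**
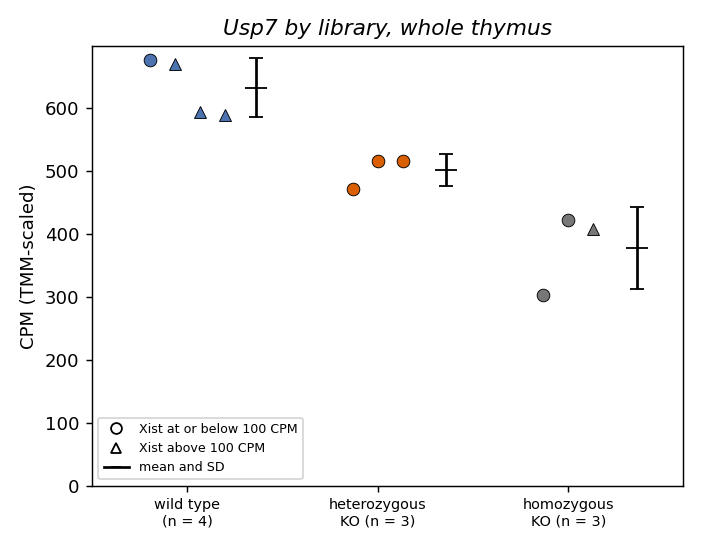
Usp7 in each of the 10 libraries, in CPM scaled by trimmed mean of M values, by group, with the mean and SD of each group. Circles are libraries with Xist at or below 100 CPM and triangles those above it, and the 3 heterozygous KO libraries (472 to 516 CPM) lie below the 4 wild types (589 to 676 CPM) and above the homozygous KO libraries.

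The genes around Usp7 were read for a change that reaches beyond the gene. The nearest tested genes on one side were Carhsp1, 17.4 kb away with a log2 fold change of 0.24, Pmm2 with -0.15 and Tmem186 with -0.08. On the other side they were 1810013L24Rik with -0.0036, Gm10247 with 0.24 and Rpl39l with 0.27. None passed the edgeR test, with adjusted p values from 0.681 to 0.993. Within 5 Mb on either side, 93 genes were tested, of which 0 were higher and 5 lower at an unadjusted p under 0.05. The latter were 5.38%, against 4.2% of all genes and 5.90% of those at 5 or more in average log2 CPM.

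Across the transcriptome, edgeR's quasi-likelihood test called 3 genes at an adjusted p under 0.05, 0.0154% of those tested. All 3 were higher in heterozygous KO, and 0 genes were called lower, whereas DESeq2 called 28 higher and 43 lower. At an unadjusted p under 0.05 the test listed 1421 genes, 7.28% of all, of which 601 (3.08%) were higher and 820 (4.2%) lower. The 3 heterozygous KO libraries lay above all 4 wild types for 861 genes (4.41%) and below them for 834 (4.27%). Among the 5930 genes at 5 or more in average log2 CPM these shares were larger. At an unadjusted p under 0.05, 5.03% of them were higher and 5.90% lower, and without overlap 6.27% were higher and 5.51% lower. In homozygous KO against the same wild types 25.8% of the genes were called.

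**Figure D2:**
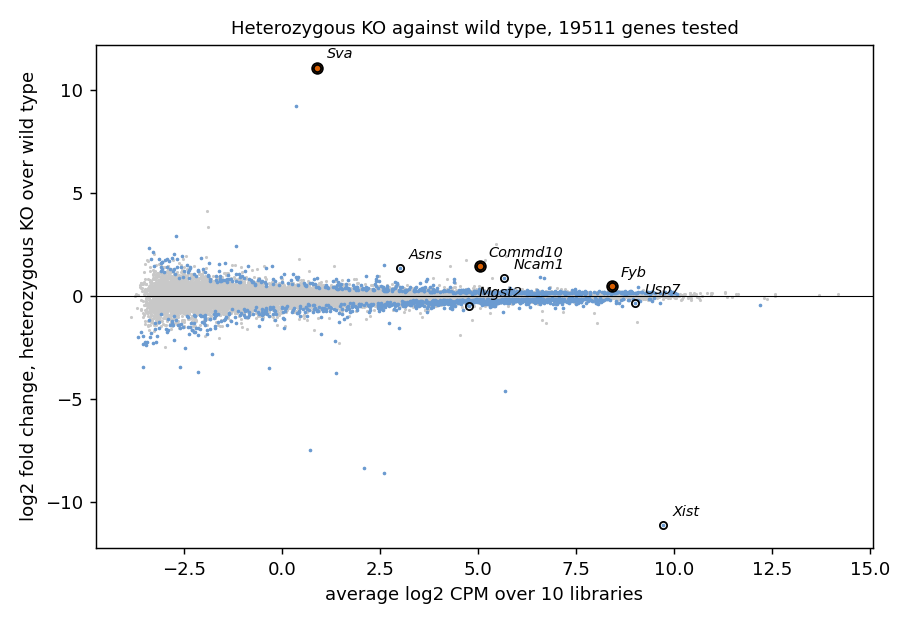
Log2 fold change of heterozygous KO over wild type against the average log2 CPM over the 10 libraries, for 19511 genes. Grey points had an unadjusted p of 0.05 or more, blue points a lower one, and the 3 orange points (Commd10, Fyb and Sva) passed the adjusted test, while Usp7, Asns, Ncam1, Mgst2 and Xist are labelled but did not.

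Commd10, Sva and Fyb were the called genes. Commd10 encodes a COMM domain protein that takes part in the retrieval of membrane proteins from endosomes. Commd10 had 43.0, 44.8 and 46.4 CPM in heterozygous KO and 15.8, 17.0, 14.6 and 17.2 CPM in wild type. The groups were far apart, and it rose 2.77-fold (log2 fold change 1.47, SE 0.07, edgeR adjusted p 6.4e-06), which every alternative also called. In homozygous KO it was 1.43 above wild type on the log2 scale, and the difference between the knockouts, -0.04 (SE 0.08), did not pass the test (edgeR adjusted p 0.784). The gene that follows Commd10 on chromosome 18, Sema6a, a semaphorin that guides cell migration, starts 1.31 kb beyond its end. Sema6a had 1.65, 0.911 and 0.991 CPM in heterozygous KO and 0.368, 0.457, 0.416 and 0.447 CPM in wild type. These values did not overlap either, with a log2 fold change of 1.48 (SE 0.31) and an edgeR adjusted p of 0.493. On the other side, Ap3s1, 168 kb before Commd10, had a log2 fold change of 0.22. None of the other 12 tested members of the COMMD and retrieval complex list was called, and the median over its 13 tested members was 0.02.

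Sva, a seminal vesicle secretory protein gene on chromosome 6 (42038394 to 42042851), was not detected in wild type, with 0 counts in each of the 4 libraries. In heterozygous KO it had 411, 260 and 270 counts, or 4.11, 2.72 and 2.94 CPM. Against the floor of the shallowest wild-type library this is at least 44.2-fold higher, with an edgeR adjusted p of 2.1e-04. Its neighbours were not called: Kel, the gene of an erythroid blood group protein, had a log2 fold change of -0.64 and Gstk1, a glutathione transferase, 0.29. Among all 35375 features, 48 had more than 3 counts in every heterozygous KO library and at most 3 in every wild type, and Sva had by far the most counts of them. No feature showed the reverse pattern, and the heterozygous KO libraries are deeper than the wild types.

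Fyb (ADAP), an adapter that links T-cell receptor signals to integrins, lies on chromosome 15 (6522853 to 6663313). It had 370, 359 and 351 CPM in heterozygous KO and 256, 240, 248 and 263 CPM in wild type. Fyb rose 1.43-fold (log2 fold change 0.52, SE 0.06, edgeR adjusted p 0.0095). Homozygous KO was higher again, by 0.31 (SE 0.06) on the log2 scale against heterozygous KO (edgeR adjusted p 0.0049). Fyb was called in 8 of 18 alternatives, and its edgeR adjusted p was 0.265 with a sex term, 0.911 against the male wild type alone and 0.0543 to 0.0616 on leaving out any heterozygous KO library or wild type 2 or 3. Its log2 fold change stayed between 0.49 and 0.54 in every alternative. The annotated genes inside Fyb, Gm2245 and Gm7666, had log2 fold changes of 0.57 and 0.24, and its neighbour Rictor had -0.12. Of the other 26 tested members of the proximal T-cell receptor list 7 had a log2 fold change above 0, and 4 of the 27 (14.8%, against 4.2% of all genes) were lower at an unadjusted p under 0.05, a count of 0 to 6 over the alternatives. Among these, Lcp2 (SLP-76), the adapter that binds Fyb, had -0.11 (SE 0.04, edgeR adjusted p 0.664).

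**Figure D3:**
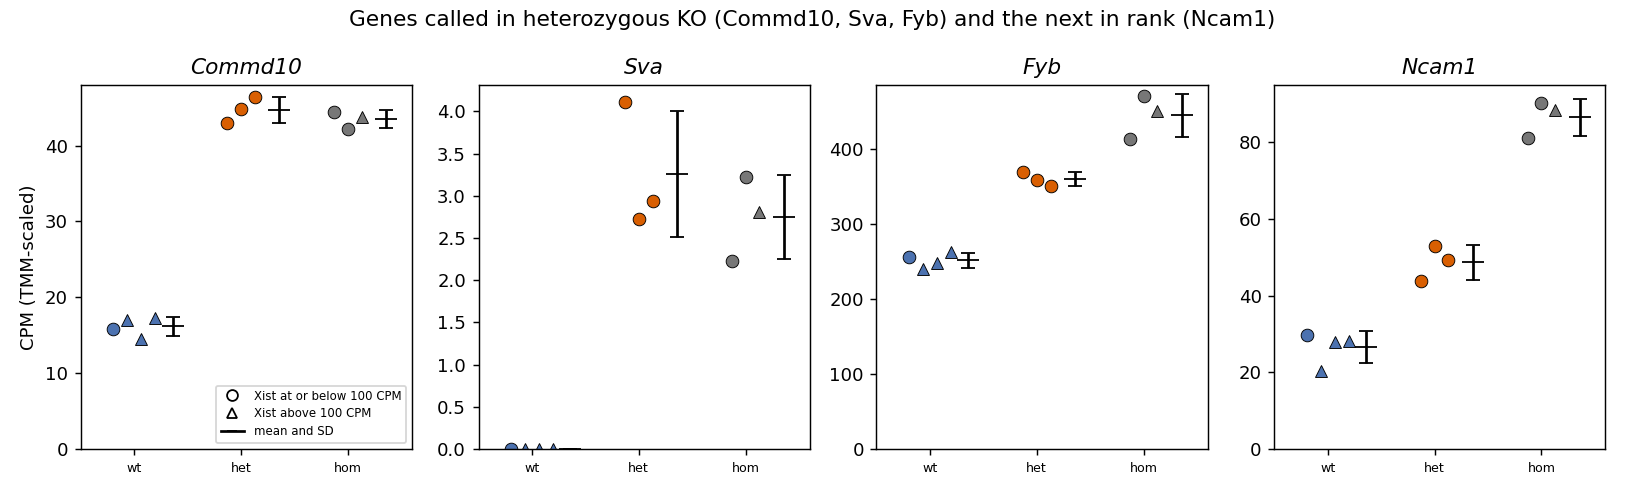
CPM of Commd10, Sva, Fyb and Ncam1 in each library, with wt for wild type (n = 4), het for heterozygous KO (n = 3) and hom for homozygous KO (n = 3), and the mean and SD beside each group. Circles are libraries with Xist at or below 100 CPM and triangles those above it. For all 4 genes every heterozygous KO library lies above every wild type, and Sva is at 0 in all wild types.

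Below the threshold, Ncam1 came next. It encodes the neural cell adhesion molecule. Its levels were 43.9, 52.9 and 49.4 CPM in heterozygous KO and 29.7, 20.3, 27.8 and 28.3 CPM in wild type. The log2 fold change was 0.88 (SE 0.12) with an edgeR adjusted p of 0.0553, and homozygous KO stood a further 0.83 higher (edgeR adjusted p 0.00103). The other genes with the lowest p on the higher side, limited to genes at 2 or more in average log2 CPM whose groups did not overlap, were Asns, Mgmt, Zadh2, Cyb5a, Prkar2a, Pmaip1 and Rpl37, none of which was called (edgeR adjusted p 0.304 to 0.522). Mgmt, which repairs alkylated guanine in DNA, had a log2 fold change of 0.996 (SE 0.18). Cyb5a, cytochrome b5, had 125, 119 and 81.2 CPM in heterozygous KO and 49.2, 49.8, 50.6 and 80.5 CPM in wild type, so that wild type 4 came close to the lowest heterozygous KO library. The log2 difference for Cyb5a was 1.32 within animals 44 to 51 and 0.29 within animals 56 to 63. Prkar2a, a regulatory subunit of protein kinase A, had 0.37, and Zadh2, a reductase gene, also 0.37. Of these 10 highest-ranked genes 4 lie on chromosome 18 (Commd10, Pmaip1, Zadh2 and Cyb5a), where 5.75% of 400 tested genes were higher and 1.5% lower at an unadjusted p under 0.05, against 3.08% and 4.2% of all genes.

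On the lower side the differences were smaller. The 10 genes given here were ranked under the same limits, so that their groups did not overlap by selection. Mgst2, a microsomal glutathione transferase, had 30.9, 26.4 and 27.3 CPM in heterozygous KO and 40.1, 39.3, 39.9 and 37.3 CPM in wild type. The wild types were nearly equal and all above the heterozygous KO libraries (log2 fold change -0.47, SE 0.07, edgeR adjusted p 0.196). Homozygous KO was a further 1.35 lower on the log2 scale (SE 0.08, edgeR adjusted p 2.6e-06). Slc28a2, a nucleoside transporter, had 37.0, 39.0 and 42.0 CPM against 50.95, 51.3, 58.9 and 54.6 CPM (log2 fold change -0.46, edgeR adjusted p 0.303). The others were Mapk8ip3 (-0.30), a scaffold of the JNK pathway, Slc12a7 (-0.22), a potassium chloride cotransporter, Asb13 (-0.48), Metap1d (-0.57), a mitochondrial methionine aminopeptidase, Mcoln1 (-0.39), a lysosomal cation channel, Ccnl2 (-0.36), a cyclin of the splicing machinery, and Ankrd16 (-0.46), where the values are log2 fold changes. Cldn4, a tight junction gene on the medullary thymic epithelium list, had 17.5, 15.5 and 18.5 CPM against 21.8, 22.5, 23.9 and 25.3 CPM. In homozygous KO it was 2.41 below wild type on the log2 scale (edgeR adjusted p 1.2e-07). The median of that list lay 0.18 to 0.75 above the wild-type mean in the homozygous KO libraries. Which cells expressed Cldn4 was not tested. None of the 10 was called by edgeR in heterozygous KO against wild type (adjusted p 0.196 to 0.459). DESeq2 called all 10, and on the higher side Ncam1, the 7 genes named after it and Sema6a.

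For the E proteins themselves no difference passed the test. Tcf3 had 238, 244 and 229 CPM in heterozygous KO and 223, 235, 235 and 227 CPM in wild type. The log2 fold change of Tcf3 was 0.04 (SE 0.05), with a 95% interval of -0.06 to 0.15. Tcf12 had 609, 666 and 634 CPM against 600, 589, 588 and 664 CPM, with 0.06 (SE 0.07), and it turned to -0.0056 with the animal number as a term. Tal1, the factor that holds E proteins in check and is a leukaemia oncogene, was at or below 0.596 CPM in all 7 libraries. Among 18 E proteins and partners, Lmo4 was higher (log2 fold change 0.38) and Ldb1 lower (-0.20) at an unadjusted p under 0.05, and the list median was -0.03.

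E-protein target genes were examined next, since the question of the study concerns their output. Rag1, the recombinase of antigen receptor genes, had 5564, 5579 and 6011 CPM in heterozygous KO and 6561, 6622, 6361 and 5656 CPM in wild type. Wild type 4 lay among the heterozygous KO libraries and the other wild types above them. Rag1 thus differed by -0.14 on the log2 scale (SE 0.07, edgeR adjusted p 0.727), by -0.23 within animals 44 to 51, by 0.03 within animals 56 to 63 and by -0.20 against the male wild type. Rag2 had 124, 91.4 and 106 CPM against 140, 138, 166 and 93.8 CPM, with a log2 fold change of -0.33 (SE 0.21). Ptcra, the surrogate chain of the pre-T-cell receptor, had -0.04 (SE 0.13) and Cd69, an activation marker, 0.05 (SE 0.25). Of the 10 targets on the list 0 were called and 3 had a log2 fold change above 0. At an unadjusted p under 0.05 there were 0 higher and 1 lower (10%, against 4.2% of all genes). The median was -0.08, against -0.01 over all genes tested, and it stayed between -0.13 and -0.05 over the alternatives. The number lower at this threshold was 4 with the replicate number as a term, and 1 with the animal number or sex as a term.

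Genes that mark the stages of T-cell development gave small differences. The 18 markers of double-positive thymocytes had a median log2 fold change of -0.10, and 16 of them were below 0. At an unadjusted p under 0.05, 2 were lower (11.1%, against 4.2% of all genes). With the replicate number as a term 8 were lower, and with the animal number or sex as a term 2. Rag2 had the lowest log2 fold change both here and among the E-protein targets, so the lists are not separate. Cd1d1, which presents lipids to natural killer T cells, had -0.31 (SE 0.08, edgeR adjusted p 0.568). The summed level of the 18 markers was 19405 to 20335 CPM in heterozygous KO and 19871 to 21676 CPM in wild type, with wild type 4 inside the range of heterozygous KO. The 15 double-negative markers had a median of -0.27. Bcl11a, a factor of early progenitors, had 4.25, 3.18 and 4.07 CPM against 6.26, 6.11, 7.34 and 4.50 CPM and was the only one at an unadjusted p under 0.05 (log2 fold change -0.66, edgeR adjusted p 0.597). The 16 mature single-positive markers had a median of -0.06, and 0 passed even the unadjusted threshold. The 20 genes of the Notch pathway, which commits progenitors to the T lineage, had a median of -0.0034, with Notch1 at 0.03 (SE 0.13).

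Genes of innate-like and gamma-delta T cells were lower as a list. All 14 tested members had a log2 fold change below 0, with a median of -0.32, and 5 of them were lower at an unadjusted p under 0.05, or 35.7% against 4.2% of all genes. Il17a, the cytokine of the interleukin-17 producing subset, had 0.130, 0.126 and 0.131 CPM in heterozygous KO and 0.417, 0.265, 0.484 and 0.556 CPM in wild type (log2 fold change -1.75, SE 0.40, edgeR adjusted p 0.522). The groups were apart for Il17a, at a level of few counts. Il23r, the receptor that sustains this subset, had -1.32, Maf, a factor of the same subset, -0.39 and Klrb1c (NK1.1) -0.80. Cd163l1, a scavenger receptor of gamma-delta cells, had 11.5, 7.93 and 8.70 CPM against 14.95, 10.4, 31.8 and 9.23 CPM, where wild type 3 was highest and the groups overlapped. Wild type 3 also had the highest summed level of the list, 709 CPM, against 492 to 552 CPM in heterozygous KO and 528 to 612 CPM in the other wild types. Without wild type 3 the list median was -0.20 and 2 members were lower at an unadjusted p under 0.05. Only 1 was lower without heterozygous KO 2 or with a sex term, and 7 without wild type 4. With a sex term the list median was nevertheless -0.63, the lowest of the 18 alternatives.

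Known substrates and partners of USP7 were followed at the RNA level. Of 20, 15 had a log2 fold change above 0, against 48.4% of all genes, and the median was 0.03. Mdm4, the partner of MDM2 in holding p53 down, had 170, 165 and 179 CPM in heterozygous KO and 207, 201, 190 and 190 CPM in wild type, and was the only one at an unadjusted p under 0.05 (log2 fold change -0.20, SE 0.06, edgeR adjusted p 0.568). Mdm2 had 113, 121.7 and 122.4 CPM against 123, 119, 121 and 133 CPM, Trp53 159, 160 and 159 CPM against 153, 164, 173 and 153 CPM, and Trim27, a ubiquitin ligase that forms a complex with USP7, had a log2 fold change of 0.09. Of 33 other ubiquitin-specific proteases tested, 0 were higher and 2 lower at an unadjusted p under 0.05. The latter were 6.06%, against 4.2% of all genes and 5.90% of those at 5 or more in average log2 CPM. The median of these proteases was -0.0028.

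Targets of p53 held 3 members higher (13.6%, against 3.08% of all genes) and 1 lower (4.55%, against 4.2%) among 22 at an unadjusted p under 0.05. Over the alternatives 2 to 7 were higher and 0 to 4 lower. Pmaip1 (NOXA), which promotes cell death by binding MCL1, had 8.36, 14.1 and 12.1 CPM in heterozygous KO and 7.49, 6.84, 6.29 and 8.02 CPM in wild type. Every heterozygous KO library was above every wild type, with heterozygous KO 1 closest to them (log2 fold change 0.69, SE 0.16, edgeR adjusted p 0.522). The place of Pmaip1 among the ranked genes required groups that did not overlap. Zmat3, an RNA-binding protein, had 32.1, 30.2 and 31.8 CPM against 23.7, 24.7, 28.6 and 25.5 CPM (log2 fold change 0.29, edgeR adjusted p 0.621), and Phlda3, an inhibitor of AKT, had 0.46. In homozygous KO the values were 2.78 for Pmaip1, 3.20 for Zmat3 and 3.51 for Phlda3, and each was higher than in heterozygous KO (edgeR adjusted p 1.8e-05, 1.4e-07 and 3.4e-06, in this order). Sesn1 was lower (-0.19) and Cdkn1a, Bax and Ccng1 did not pass. The list median was 0.05, and that of the 15 tested members of the BCL2 family, which decides between survival and death of thymocytes, was -0.01.

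Amino acid synthesis and transport genes that the factor ATF4 controls were higher in heterozygous KO as a list. ATF4 is translated when amino acids are short or proteins misfold, and it binds with C/EBP proteins to a composite element in its target genes. The list was added after Asns had been seen among the ranked genes, so its counts are descriptive. Of 36 tested members 13 were higher and 0 lower at an unadjusted p under 0.05, or 36.1% against 3.08% of all genes, and 34 had a log2 fold change above 0, with a median of 0.20. None was called by edgeR, while DESeq2 called Asns, Pycr1 and Atf5. The number of members higher at an unadjusted p under 0.05 was 5 with a sex term, 7 against wild types 3 and 4 alone and 17 without wild type 4, and 0 were lower in any alternative. Asns, asparagine synthetase, had 14.2, 9.05 and 7.92 CPM in heterozygous KO and 3.49, 4.04, 3.77 and 4.67 CPM in wild type. Every heterozygous KO library was well above the wild types, with heterozygous KO 1 highest (log2 fold change 1.38, SE 0.24, edgeR adjusted p 0.304). The place of Asns among the ranked genes required groups that did not overlap.

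Other members of the list showed the same order of the groups. Pycr1, of proline synthesis, had 1.99, 2.25 and 1.64 CPM against 0.835, 1.11, 0.799 and 0.967 CPM (log2 fold change 1.08, edgeR adjusted p 0.496). Slc7a3, a cationic amino acid transporter, had 1.29, 0.869 and 0.632 CPM against 0.467, 0.385, 0.349 and 0.411 CPM (log2 fold change 1.21, edgeR adjusted p 0.522). Pycr1 and Slc7a3 were lower in homozygous than in heterozygous KO, by 1.38 and 2.37 on the log2 scale (edgeR adjusted p 0.0029 and 6.3e-04), while Asns did not pass the test between the knockouts (log2 difference 0.08). Smaller values were found for Slc1a4 (0.55), Atf5 (0.37), Psat1 of serine synthesis (0.23), the transporters Slc7a5 (0.19) and Slc7a1 (0.18), the serine and glycine enzymes Phgdh (0.13) and Shmt2 (0.16), and the transfer RNA synthetases Gars (0.16) and Sars (0.14). Chac1, which degrades glutathione, had 1.87 but at 0.690 CPM or less in every library. Atf4 itself had 129, 173 and 175 CPM against 129, 126, 115 and 173 CPM, with the animals of the higher numbers above the others in both groups (log2 fold change 0.22, SE 0.17). The 3 heterozygous KO libraries stood 0.18 to 0.22 above the wild-type mean of each gene at the list median, and the wild types between -0.05 and 0.07.

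The promoters of the list were searched for the composite element TGATGNAAN, on both strands, in the 300 bases from 250 before to 50 after each RefSeq start (GRCm38.p6). It was present in 12 of 30 tested members with a promoter sequence (40%), against 2.85% of tested genes and 4.50% of all genes with one. The members were chosen as ATF4 targets, so an excess over all genes follows from that choice and tells nothing about heterozygous KO. Among the members with an unadjusted p under 0.05 it was found in 5 of 11, and among the others in 7 of 19. A match is a string of letters and not a demonstration of binding. The windows below are shown because they belong to the members with the largest differences and to Gars, with the element in capitals and 10 bases on either side, read in the direction of transcription. In Chac1 and Gars the element lies on the opposite strand, so that its reverse complement is in capitals.
Asns (chr6:7693214-7693242, minus strand, log2 fold change 1.38): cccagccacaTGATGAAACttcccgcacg
Pycr1 (chr11:120643833-120643861, minus strand, log2 fold change 1.08): gccctgtgtaTGATGCAATgcacaaggct
Chac1 (chr2:119351038-119351066, plus strand, log2 fold change 1.87): cttccctgccGTTGCATCActcctgccag
Gars (chr6:55037960-55037988, plus strand, log2 fold change 0.16): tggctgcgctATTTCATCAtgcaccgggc
The element of Asns ends 14 bases before the start and that of Pycr1 94 bases before it. Slc7a11, the cystine transporter, holds the element on both strands and had a log2 fold change of -0.23.

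Ribosomal protein genes were higher by a small and even amount. Of 78 tested, 52 were higher and 0 lower at an unadjusted p under 0.05, or 66.7% against 3.08% of all genes. None was called by edgeR, and DESeq2 called Rps19, Rpl31 and Rpl37. The median log2 fold change was 0.17, and 74 of the 78 lay above 0. In 28 genes the heterozygous KO libraries were all above the wild types, 35.9% against 4.41% of all genes. Rpl37 had 192, 207 and 200 CPM in heterozygous KO and 167, 176, 173 and 179 CPM in wild type (log2 fold change 0.20, SE 0.05, edgeR adjusted p 0.522). Rps19 had 368, 394 and 386 CPM against 315, 325, 335 and 349 CPM (0.21, SE 0.05, edgeR adjusted p 0.522). Rps18 had the largest difference of the list, 0.24.

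Summed over the list, ribosomal protein genes took 41152, 44977 and 44039 CPM in heterozygous KO and 36941, 38124, 38171 and 42319 CPM in wild type. Wild type 4 lay above heterozygous KO 1, so the groups overlapped, and within each block of animal numbers heterozygous KO was higher. The number of members at an unadjusted p under 0.05 depended on the libraries, from 12 against wild types 3 and 4 alone to 68 without wild type 4, and 0 were lower in any alternative. These genes have many near-identical pseudogenes, and how shared reads were counted is not stated. Messages of ribosomal proteins begin with a C and a run of pyrimidines, the terminal oligopyrimidine tract by which their translation is regulated. A C followed by at least 4 pyrimidines within 3 bases of the RefSeq start was found in 24 of 57 list members with a promoter sequence (42.1%), against 14.9% of tested genes. The tract is a trait of these messages, so this excess follows from the choice of the list and tells nothing about heterozygous KO. Windows of 20 bases before and 10 after the start are shown for Rps18, Rpl38 and Rpl31, 3 members with such a tract and a difference above the list median, with the tract in capitals as far as the window reaches.
Rps18 (chr17:33955656-33955685, minus strand, log2 fold change 0.24): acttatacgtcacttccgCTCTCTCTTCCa
Rpl38 (chr11:114668560-114668589, plus strand, log2 fold change 0.22): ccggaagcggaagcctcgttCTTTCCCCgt
Rpl31 (chr1:39367831-39367860, plus strand, log2 fold change 0.19): cacctcttcctcctcgcCTCCCCgtgaccc

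Nuclear genes of the respiratory chain, a list added after the values had been seen, were higher in 21 of 75 tested members and lower in 0 at an unadjusted p under 0.05, or 28.0% against 3.08% of all genes, with a median log2 fold change of 0.11. The number higher was 3 without heterozygous KO 3 or against wild types 3 and 4 alone, 6 without heterozygous KO 2 and 40 without heterozygous KO 1. Atp5l, a subunit of ATP synthase, had 51.1, 54.7 and 58.4 CPM against 44.7, 44.8, 44.6 and 50.02 CPM (0.25, SE 0.07, edgeR adjusted p 0.568). The 13 genes encoded in the mitochondrion had a median of -0.10 and 10 of them lay below 0.

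Ribosomal protein and respiratory chain genes are short by exon length, the bases covered by all annotated exons of a gene, which can exceed the length of a message. Exon length went with the difference across genes. The 9829 protein-coding genes at 2 or more in average log2 CPM were cut into 10 bins by exon length. The bin of the shortest genes (312 to 1951 bases) had a median log2 fold change of 0.06, with 11.3% higher and 1.53% lower at an unadjusted p under 0.05. The bin of the longest (10173 to 123179 bases) had a median of -0.03, with 1.63% higher and 6.31% lower. Without the ribosomal protein genes the shortest bin still had a median of 0.06 and 8.71% higher. Across genes, which are not independent replicates, Spearman's rho between log2 fold change and exon length was -0.19. Pearson's r with the logarithm of exon length was weaker, at -0.07. By library, the median log2 difference of the shortest bin from the wild-type mean was 0.01, 0.10 and 0.10 in heterozygous KO 1, 2 and 3 and -0.04 to 0.02 in wild type. The part of length in the ribosomal protein result was not tested.

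Genes of cell division were higher as lists and not as single genes. All 23 mitosis genes had a log2 fold change above 0, from 0.08 for Kif20a to 0.21 for Ccnb2, a mitotic cyclin, with a median of 0.14. In 10 of them the heterozygous KO libraries were all above the wild types, 43.5% against 4.41% of all genes. Only Tpx2, a spindle assembly factor, had an unadjusted p under 0.05 (log2 fold change 0.19, edgeR adjusted p 0.685). In a fit of the 7 libraries alone 11 mitosis genes passed this threshold, with the animal number as a term 10, and in several other alternatives 0, while the median stayed between 0.09 and 0.22. Heterozygous KO stood 0.06 to 0.20 above the wild-type mean at the median of the mitosis list and the wild types between -0.09 and 0.07, so that the groups overlapped. Ccnb2 had 151, 170 and 153 CPM in heterozygous KO and 136, 135, 127 and 147 CPM in wild type. The order was the same for Ccnb2 in both blocks of animal numbers. Of 23 DNA replication genes 22 were above 0, with a median of 0.12. At an unadjusted p under 0.05 there were 2 higher (8.70%, against 3.08% of all genes), and 0 to 8 over the alternatives. Of all genes at 5 or more in average log2 CPM, 5.03% were higher at this threshold in the fit over the 10 libraries. Rrm1, a subunit of ribonucleotide reductase, had 581, 605 and 543 CPM in heterozygous KO and 490, 515, 451 and 538 CPM in wild type (0.21, SE 0.09, edgeR adjusted p 0.685). At the list median heterozygous KO stood 0.10 to 0.16 above the wild-type mean for DNA replication, and the wild types between -0.07 and 0.04, which did not overlap. The housekeeping genes also stood apart on this measure, at 0.05 to 0.07 against -0.05 to 0.04. The 20 genes of the DNA repair checkpoint had a median of 0.02, with Dclre1c (Artemis), which opens hairpins in receptor gene rearrangement, at -0.26.

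**Figure D4:**
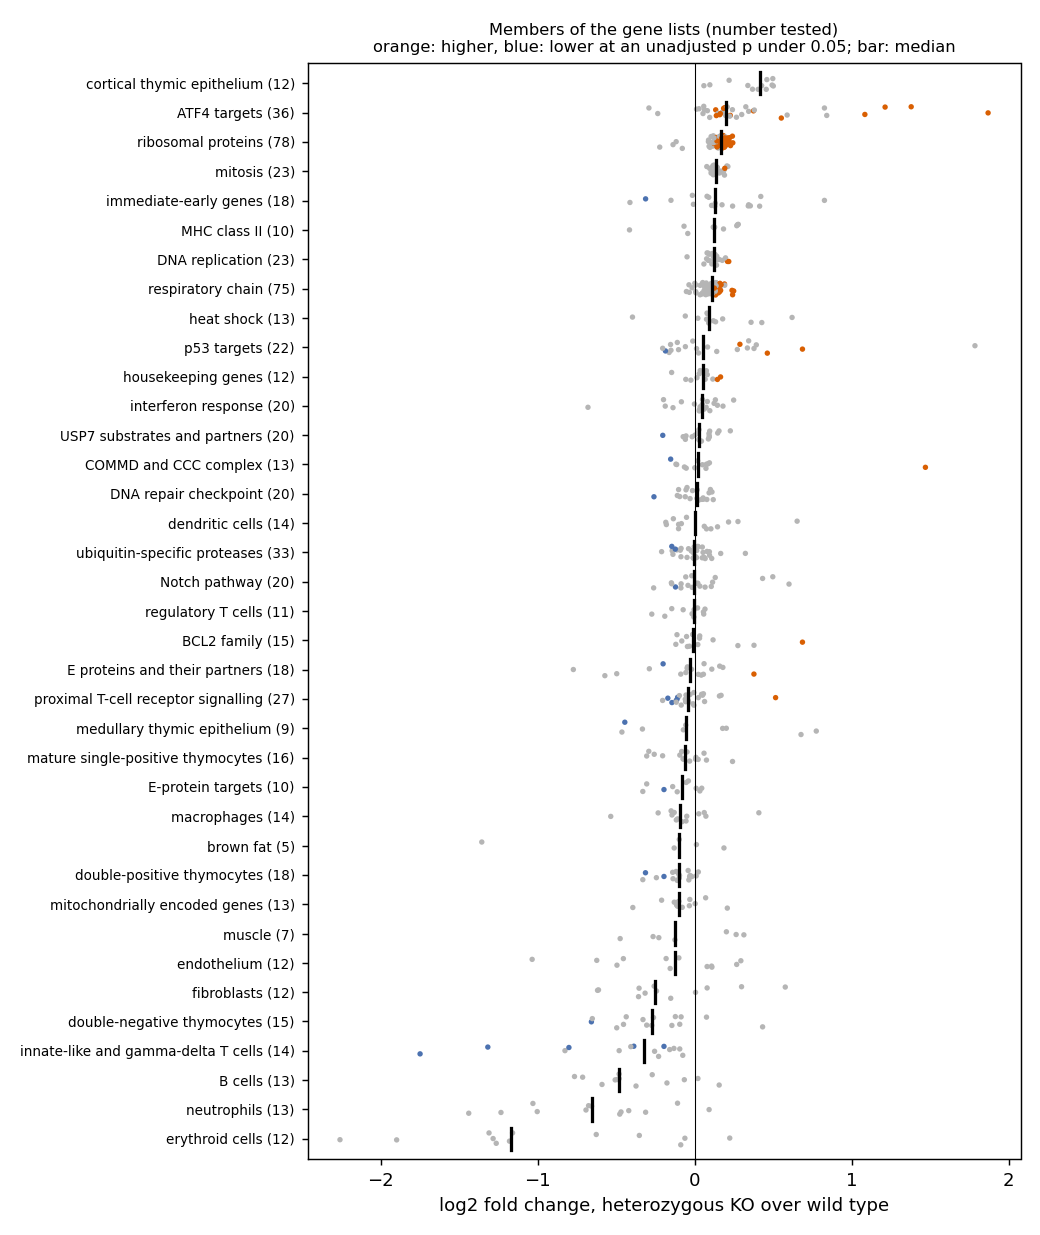
Log2 fold change of heterozygous KO over wild type for each tested member of 37 gene lists, ordered by the list median (black bar), with the number of members tested in parentheses. Orange and blue mark members higher or lower at an unadjusted p under 0.05, and the ribosomal protein list holds 52 orange points of 78, while the erythroid list reaches furthest to the left with a median of -1.17.

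Markers of several other cell types differed between single libraries of a group. The 12 erythroid genes had a median log2 fold change of -1.17, and 0 were lower at an unadjusted p under 0.05, but 7 in a fit of the 7 libraries alone and 4 without wild type 1. Their sum was 402, 809 and 811 CPM in heterozygous KO and 605, 1280, 1388 and 2067 CPM in wild type, so that wild type 1, the only one with male expression, was below 2 of the heterozygous KO libraries. Against wild type 1 alone the median was 0.07, whereas with a sex term it was -1.75. Slc4a1, the anion exchanger of red cells, ranged from 0.980 to 3.86 CPM in heterozygous KO and from 2.95 to 16.1 CPM in wild type, and Hbb-bs, a beta globin, from 103 to 316 and from 183 to 1004 CPM. The 13 neutrophil genes summed to 9.95 to 15.2 CPM in heterozygous KO and 11.0 to 27.3 CPM in wild type, with a median of -0.66. The 13 B-cell genes had a median of -0.48, with 2 above 0 and 0 at an unadjusted p under 0.05, and their sums overlapped (365 to 387 CPM in heterozygous KO and 349 to 421 CPM in wild type). At the list median, however, the heterozygous KO libraries were all below the wild types, at -0.47 to -0.30 against -0.15 to 0.41, and the median log2 fold change was -0.04 against the male wild type alone.

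Cortical thymic epithelium was on the higher side, with all 12 tested genes above 0, a median of 0.42 and none at an unadjusted p under 0.05. Their sum was 269, 513 and 465 CPM in heterozygous KO and 262, 337, 296 and 399 CPM in wild type. Heterozygous KO 1 was at the level of wild type 1, and heterozygous KO 2 and 3 were above all wild types. With a sex term the median was 0.97 and 10 of the 12 were higher at an unadjusted p under 0.05. Without heterozygous KO 1 they were 0.71 and 7, and with the animal number as a term 0.06 and 0. Krt18, an epithelial keratin, had 21.9, 45.4 and 42.7 CPM against 19.1, 29.1, 22.2 and 33.2 CPM, and Prss16, a thymus-specific serine protease, 34.95, 88.4 and 77.5 CPM against 32.1, 54.8, 46.3 and 61.8 CPM. The 18 immediate-early genes had a median of 0.13, which was -0.16 with the animal number as a term. Junb, one of them, had 200 and 187 CPM in heterozygous KO 2 and 3 and 255 CPM in wild type 4, and 45.3 to 72.4 CPM in the 4 libraries of lower animal number. The part of animal number and sex in the results above was not tested beyond these values.

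**Figure D5:**
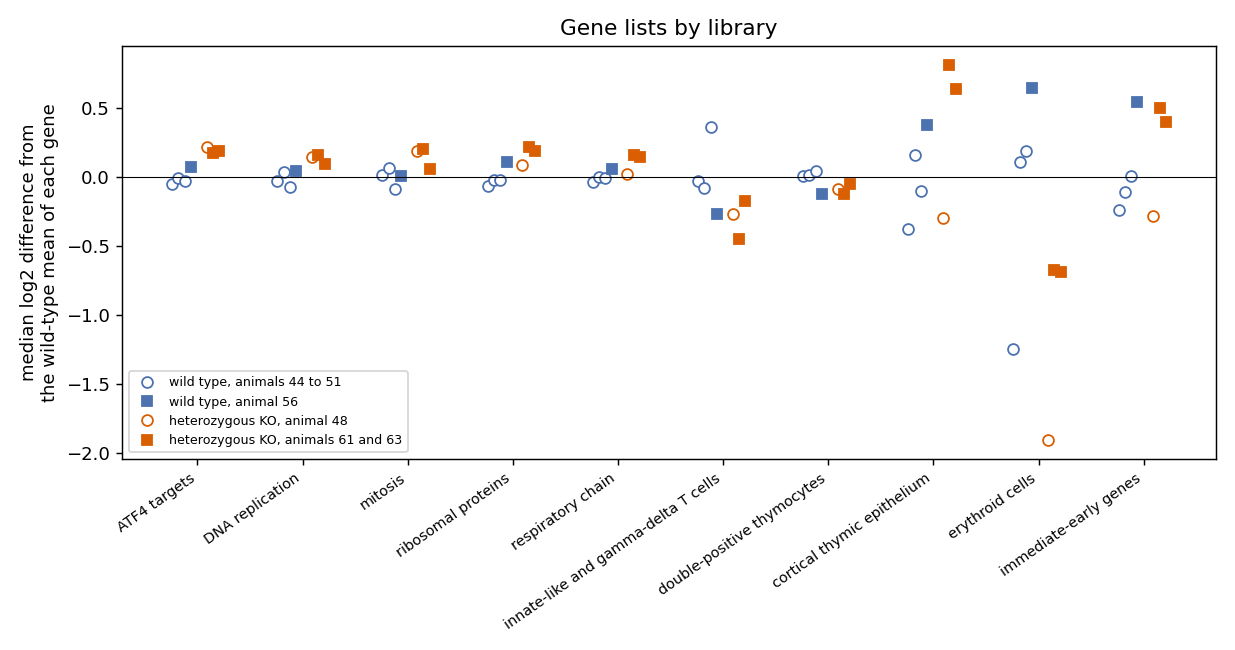
Median over the members of each list of the log2 difference from the wild-type mean of the same gene, in each of the 7 libraries. Blue is wild type and orange heterozygous KO, and filled squares are animals with numbers from 56 to 63. Among the lists drawn, heterozygous KO lies above all wild types for ATF4 targets and DNA replication, while for cortical thymic epithelium and immediate-early genes the filled squares lie above the open circles.

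The remaining lists had medians between -0.25 and 0.13. These were fibroblasts (-0.25), endothelium (-0.13), muscle (-0.13), brown fat (-0.10), macrophages (-0.09), medullary thymic epithelium (-0.06), regulatory T cells (-0.0050), dendritic cells (0.0049), the interferon response (0.05), housekeeping genes (0.05), heat shock genes (0.09) and MHC class II genes (0.13). At an unadjusted p under 0.05 these 12 lists held 2 higher members, Hprt (log2 fold change 0.17) and Ppia (0.15) among the housekeeping genes, and 1 lower, Cldn4. Only 2 of 5 parathyroid genes were tested, Chga and Chgb. Among the named members of these lists, Rsad2, an antiviral enzyme, had a log2 fold change of -0.68 (SE 0.51), Col3a1, a collagen, -0.26 (SE 0.44), Csf1r, the receptor of macrophage growth, -0.23 (SE 0.17) and H2-Ab1, a class II chain, 0.28 (SE 0.23). None passed the edgeR test, with adjusted p values from 0.830 to 0.935.

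Sex-linked genes followed the sex of the libraries. Ddx3y, on the Y chromosome, had 80.1, 96.5 and 102 CPM in heterozygous KO and 96.4 CPM in wild type 1, and at most 0.0121 CPM in the other wild types. Among genes that escape inactivation of the X chromosome, Kdm6a had 114 to 116 CPM in heterozygous KO, 118 CPM in wild type 1 and 176 to 203 CPM in the other wild types. Kdm5c had a log2 fold change of -0.34, Eif2s3x -0.34 and Ddx3x 0.03. None of the 10 genes was called by edgeR, DESeq2 called Xist, and Xist had an edgeR adjusted p of 0.594. Of 701 tested X-linked genes, 5.99% were higher and 3.99% lower at an unadjusted p under 0.05, against 3.08% and 4.2% of all genes.

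Of 14 genes with a log2 fold change beyond 3 in either direction, 13 were not called. Those named here were chosen after their values were seen. Klk1b22, a kallikrein, had 34.6 and 16.2 CPM in wild types 1 and 2 and at most 0.109 CPM in wild types 3 and 4 and in heterozygous KO. St6galnac1, Gm11735 and BC018473 lie together on chromosome 11 between 116739062 and 116775507, and among the 7 libraries they were high in wild type 2 alone, with 11.3, 3.71 and 104 CPM. The same 3 genes were high in homozygous KO 2 and 3. Arntl2, a clock factor, had 5.60, 4.16 and 4.83 CPM in wild types 1 to 3, 0.544 CPM in wild type 4 and 0.147 to 0.370 CPM in heterozygous KO. Each of these genes was near 0 in some wild types and not in others, so the difference between the groups rested on which animals were in the wild-type group.

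The comparison was most precise at higher expression. The 95% interval of a log2 fold change reached, at the median, 0.39 to either side of the estimate over all genes tested and 0.19 over the 10556 genes at 2 or more in average log2 CPM. Among the latter, 97.7% had an interval that lay wholly within a 2-fold change in either direction and 89.3% one within 1.5-fold. Among genes with an average log2 CPM under 0, 21.3% had an interval within a 2-fold change, and for the rest the interval reached beyond it. The parts of depth and of the spread between animals in these widths were not tested.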

How the data were processed

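Total RNA of the thymus was depleted of ribosomal RNA and made into stranded libraries by the authors. They deposited a table of raw read counts per gene, not normalized, with 1 column per animal. The processing notes of the submitters name STAR 2.4.1d, HTSeq 0.6.1p1 and the mouse build NCBIM37 (mm9), whereas the study's methods describe BWA-based mapping. The annotation release and the strand setting are not given in the sources used here, so overlapping and antisense genes have uncertain counts. The column names of wild types 3 and 4 hold the word het, and the group in the titles was kept.

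Symbols and positions were taken from GENCODE M21 (GRCm38), which matched 30221 of 35375 features. Differential expression was tested with edgeR 4.0.16 in R 4.3.3 (TMM, filterByExpr, glmQLFit and glmQLFTest) in 1 fit over all 10 libraries, with Benjamini-Hochberg adjustment over all genes. Over all libraries edgeR estimated a biological coefficient of variation of 0.207. A standard error was the absolute log2 fold change over the square root of F. The fit was tested on simulated data. DESeq2 1.42.0, another scaling, no filter, covariates and left-out libraries were alternatives. Single values were compared by exact permutation. The values of some list members are not reported here.

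The 37 gene lists, the 2 added lists and the members were chosen with earlier results of these data known. The named genes were Usp7, every called gene, the 10 lowest unadjusted p in each direction (average log2 CPM of at least 2, no overlap of the groups, no predicted genes), 11 genes of the study's network, the largest difference of each list, the genes beside Usp7 and beside each called gene, and the sex-linked genes. Nothing states that the animals came from separate litters, so p-values measure the spread between these animals. Xist above 100 CPM was read as female. Log2 differences within blocks used a pseudocount of 0.1 CPM.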

Additional observations from a re-analysis of the deposited data

Results flagged for a closer look

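In the wild-type group of 4 libraries, each of 81 named genes was tested for a library far from the other 3 by the gap to the nearest library over the range, against Dixon's 95% critical value. Chance gives about 1 such result in 20 independent groups, and 12 were found. The 81 genes share the same libraries, some were chosen by these values, and the sex-linked flags follow from the sex of wild type 1. No excess over chance can therefore be read from this count.

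Wild type 4 was the high library for Cyb5a (80.5 CPM against 49.2 to 50.6, ratio 0.957), Tcf12 (664 CPM against 588 to 600, ratio 0.837), Hes1 (36.5 CPM against 14.1 to 17.0, ratio 0.870), Junb (255 CPM against 45.3 to 72.4, ratio 0.871) and Tnnt3 (8.79 CPM against 4.76 to 5.05, ratio 0.927). It is the only wild type with an animal number above 51. Wild type 1, the only wild type with male expression, was far above the others for Ddx3y (ratio 0.99987), Kdm5d (ratio 1), Eif2s3y (ratio 1) and Uty (ratio 0.99957) and far below them for Eif2s3x (133 CPM against 204 to 213, ratio 0.894). It was also the low library for Slc12a7, by a small amount (152 CPM against 159, ratio 0.968). Wild type 3 was high for Pmm2, which lies beside Usp7 (59.7 CPM against 55.5 to 56.3, ratio 0.8293).

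No gene passed an edgeR test of whether the difference between heterozygous KO and wild type varied between animals 44 to 51 and animals 56 to 63, where 0 had an adjusted p under 0.05 and 1624 an unadjusted p under 0.05. That test was added after the values were seen and rests on arms of 1 library.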

How the results depend on the processing

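Of 18 alternatives, the number of called genes was 2 to 4 in all but the replicate block (5), the libraries with male expression (5), the fit without wild type 4 (6) and DESeq2 (71, 28 of them higher), and over the fits that left out 1 library it was 2 to 6. Commd10 was called in all 18, Sva in 17, all but the male libraries (adjusted p 0.0743), and Fyb in 8. Usp7 was called in none, with log2 fold changes of -0.43 to -0.24. The replicate numbers did not pair the libraries, since same-numbered deviations correlated at 0.18, -0.02 and 0.10, and the block called 5 genes, 2 of them shared with the main result (Commd10 and Sva). The number of genes at an unadjusted p under 0.05 was 624 without heterozygous KO 2, 849 without heterozygous KO 3, 2159 without heterozygous KO 1, 2205 without wild type 4, 666 against wild types 3 and 4, and 2355 with the block. Of the unadjusted calls 42.3% were higher, and the share was 36.4% to 49.8% over the alternatives. The cause of these shifts was not tested. Another scaling, no filter and the 7 libraries alone kept all 3 calls. Intervals were wider at low expression, and the part of depth in this was not tested.

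The sign of the log2 fold change turned in these cases, none of them called in the fit over the 10 libraries, and the cause was not tested. With the animal number as a term it was -0.0056 for Tcf12, 0.064 for Tal1, -0.23 for Cd69, 0.013 for Trp53, -0.0048 for Notch1, -0.22 for Hes1, -0.32 for Junb, 0.016 for Tmem186, -0.42 for Rpl39l, 0.038 for Ptger4 and -0.0032 for Ddx3x. With male libraries only it was 1.11 for Tal1, 0.058 for Trp53, -0.11 for Notch1, 0.0020 for Csf1r, 0.35 for Col3a1, 0.16 for Lipe, 0.94 for Xist, 0.018 for Ptger4, 0.57 for Kel, 0.93 for Tsix, -0.054 for Ddx3y, -0.29 for Kdm5d, -0.27 for Uty, 0.18 for Eif2s3x and -0.029 for Ddx3x. With a sex term it was -0.022 for Notch1, 0.0085 for Lipe, -0.020 for Ddx3y, -0.30 for Kdm5d, -0.28 for Uty and 0.12 for Eif2s3x. Against wild types 3 and 4 alone it was 0.0088 for Ptcra, -0.20 for Cd69, -0.056 for Junb, 0.041 for mt-Nd6, -0.033 for Ccl22, 0.18 for Col3a1, 0.026 for 1810013L24Rik and -0.37 for Rpl39l. Against wild types 1 and 2 alone it was 0.0048 for Trp53, -0.057 for Notch1, 0.052 for Lipe, 0.0095 for Ptger4 and -0.014 for Ddx3x. For 1810013L24Rik it was 0.0025 without a filter, 0.0016 with the 7 libraries alone and 9.05e-05 in DESeq2. On leaving out 1 library, the values ran from -0.023 to 0.029 for 1810013L24Rik, -0.098 to 0.27 for Cd69, -0.46 to 0.23 for Col3a1, -0.010 to 0.074 for Ddx3x, -0.080 to 0.43 for Gm10247, -0.11 to 0.011 for Ptcra, -0.057 to 0.044 for Ptger4, -0.16 to 0.83 for Rpl39l, -1.10 to 0.040 for Tal1 and -0.040 to 0.022 for Trp53.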
